A study of Mus musculus with 18 samples.

Results

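The change in epidermal RNA between 0 h and 24 h after tape stripping was taken as the mean of the changes in 2 genotypes, mice without the aryl hydrocarbon receptor (AhR-/-) and littermates with it (AhR+/+). It rests on 12 of the 18 arrays of the series, 3 for each genotype and time, and on 23521 of 33793 array rows, those that map to 1 gene symbol. These rows name 22180 genes. All animals were females on a B6;129 background. The AhR-/- animals are of the B6.129-AhRtm1Bra/J line, whose null allele is carried by every cell, so keratinocytes and the other cells of an epidermal sheet all lack a working receptor. The labels do not give the animals' age. At 0 h the shaved back skin was untreated, and at 24 h it had been tape-stripped 24 h earlier. RNA came from the whole epidermal sheet. The 6 h arrays (3 per genotype) entered the fit and are used for comparison only. Titles number the samples within a group and the series describes littermates, so each array was treated as 1 animal, and p-values measure the spread between these samples.

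Tape stripping pulls off layers of the stratum corneum, the dead outer coat of the skin. Keratinocytes below respond with a known activation programme: they make stress keratins and envelope precursors, divide, loosen or rebuild their contacts and secrete lipids that seal the barrier. Cells that enter mitosis switch on a set of genes whose promoters often carry a CHR element or CCAAT boxes, and genes of the S phase are known targets of E2F factors. The question was which of these genes changed by 24 h in the mean over both genotypes, whatever the receptor.

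Every value is on a log scale and centred by row, so that 0 is a row's median over the 18 arrays. The sources used here do not state the base, which was taken as 2, so that a difference of 1 is a 2-fold change. No value tells how abundant a transcript is, so the keratinocyte identity of the sheets could not be read from the levels of marker genes. At an adjusted p under 0.05 (limma, Benjamini-Hochberg over all rows), 818 rows rose, which is 3.48% of those tested, and 1727 rows fell, which is 7.34%. Each count of called list or family members given below is to be read beside these shares. The rises numbered 418 without AhR-/- 0 h replicate 3, 448 without AhR+/+ 0 h replicate 1 and 506 without AhR+/+ 24 h replicate 1. Changes were small: 702 of these 2545 rows changed by 0.5 or more on the log2 scale, 126 up and 576 down, and 24 by 1 or more, 17 up and 7 down. The median change was 0.32 among risen rows, -0.43 among fallen rows and 0.020 over all rows. The arrays of 0 h and 24 h did not overlap, over both genotypes together, for 1124 rows (4.78%).

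The genotypes share no arrays. Of the rows called in AhR-/- alone, 86.2% had the same sign in AhR+/+, beside 64.1% of all rows with 1 sign in both genotypes. Over all 23521 rows the AhR-/- change and the AhR+/+ change correlated with Pearson r = 0.51 and Spearman rho = 0.41, a description across rows, which are not independent. The median change of the risen rows was 0.38 in AhR-/- and 0.24 in AhR+/+, and that of the fallen rows -0.54 and -0.31. A stricter test that asks for both genotypes at once called 0 rows (limma, smallest adjusted p = 0.119, 1333 rows at an unadjusted p under 0.05). Tested alone, the AhR-/- change called 2249 rows and the AhR+/+ change 7. A difference between the responses was called for 0 rows, with 2165 at an unadjusted p under 0.05. A rule added after these counts were seen therefore marks the rows called in the mean that also had an unadjusted p under 0.05 and the same sign in each genotype. It holds 335 risen rows (1.42%) and 966 fallen rows (4.11%), and is named below as the rule for each genotype. Without AhR+/+ 0 h replicate 1 it holds 182 risen and 600 fallen rows. Counts by this rule below are to be read beside the shares of 1.42% and 4.11%.

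**Figure D1:**
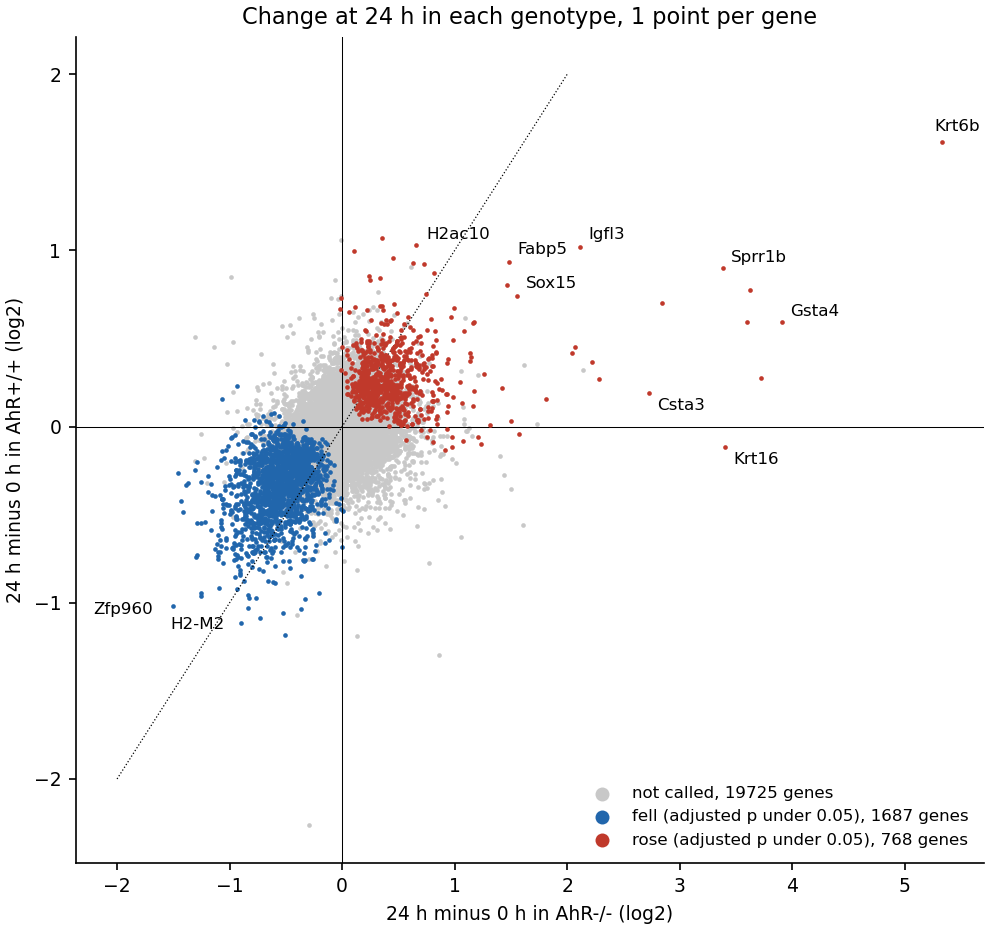
Change from 0 h to 24 h in AhR-/- (x axis, log2) and AhR+/+ (y axis, log2), 1 point for each of 22180 genes. Red points (768 genes) rose and blue points (1687 genes) fell in the mean over both genotypes; the dotted line marks equal change. Krt6b lies farthest right at 5.34 and 1.62, while most fallen genes lie in the lower left, below 0 on both axes.

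Some measures moved with time and must be read beside the counts. Gene span, the distance from a gene's start to its end, had a median of 7.66 kb among risen rows, 50.1 kb among fallen rows and 16.4 kb among all. In the second decile of genes by span (median 3.44 kb) 8.54% of rows rose and 0.943% fell, and in the ninth (median 83.4 kb) 1.34% rose and 19.4% fell. The median of the ninth decile minus that of the second was between 0.0078 and 0.125 on the 0 h arrays and between -0.072 and -0.0024 on the 24 h arrays, with no overlap. With this trend removed from each array by a smooth fit, 1247 rows rose and 1511 fell. The samples also carry a 4-digit number whose meaning the sources used here do not state. It lay under 3000 for 3 of the 6 arrays at 0 h and for 0 of those at 24 h; on arrays from 3000 up alone, 1309 rows rose and 2186 fell. That subset holds 1 AhR+/+ array at 0 h, replicate 1, which was assumed to vary like the other groups, and so does each value given below for arrays numbered from 3000 up.

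**Figure D2:**
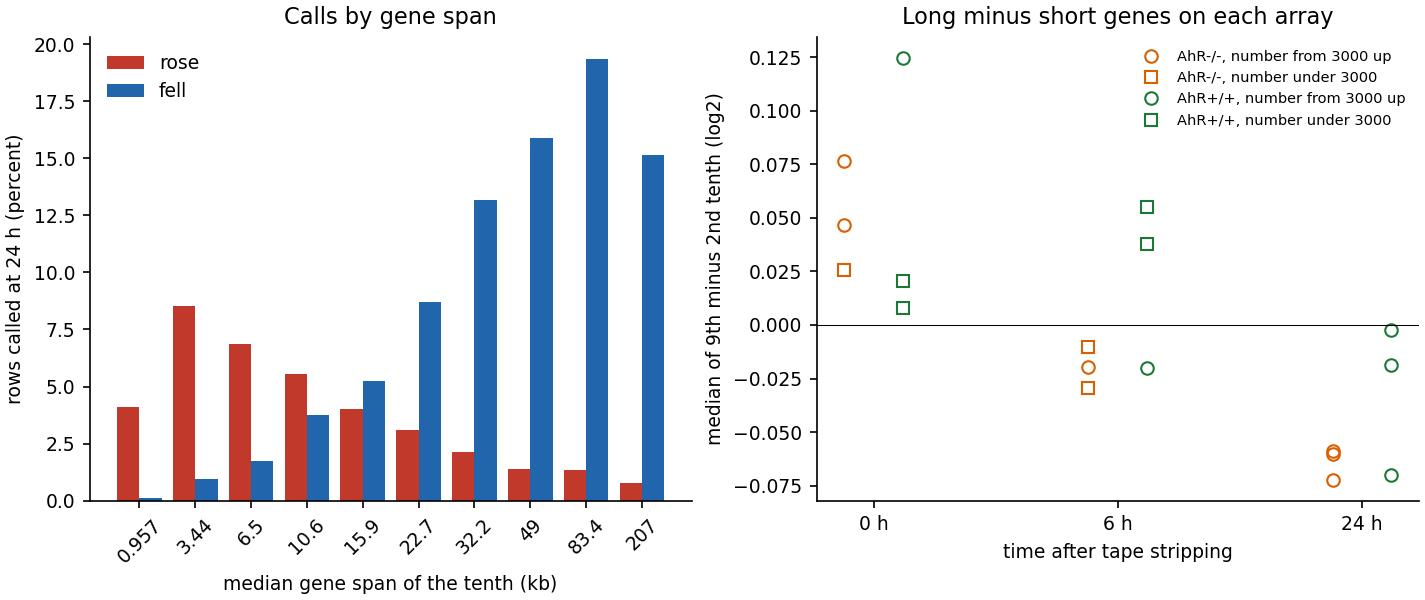
Left, percent of rows called at 24 h in each decile of genes by span (x axis, median span in kb). Right, median centred log2 value of the ninth minus the second decile on each array; circles are arrays numbered from 3000 up and squares those under 3000. Falls reach 19.4% in the ninth decile, and all 24 h arrays lie below all 0 h arrays.

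Several genes of lipid binding, transcription and detoxification met the rule for each genotype. Fabp5, the epidermal fatty acid-binding protein, read -0.15, -0.87 and -0.72 at 0 h and 1.10, 0.76 and 0.86 at 24 h in AhR-/- mice, and -1.03, -0.38 and 0.0059 at 0 h and -0.0059, 0.56 and 0.84 at 24 h in AhR+/+ mice. Of the 24 h arrays, all but 1 AhR+/+ array exceeded every 0 h array. The rise was 2.31-fold, or 1.21 ± 0.21 (SE, adjusted p = 0.00251), with changes of 1.49 in AhR-/- and 0.93 in AhR+/+, and all 4 rows of the gene rose. Sox15, a transcription factor of the SOX family, read -0.79, -0.69 and -0.99 at 0 h and 1.02, 0.77 and 0.41 at 24 h in AhR-/- mice, and -0.24, -0.23 and 0.095 at 0 h and 0.60, 0.50 and 0.74 at 24 h in AhR+/+ mice. All 6 arrays at 24 h lay above all 6 at 0 h, and the mean rise was 2.22-fold, 1.15 ± 0.14 (SE, adjusted p = 0.000644), with 1.56 in AhR-/- and 0.74 in AhR+/+. Igfl3, a secreted protein of the IGF-like family, had values of -0.16, 0.27 and -0.0027 at 0 h and 2.38, 1.46 and 2.61 at 24 h in AhR-/- mice, and -0.69, -0.38 and 0.0027 at 0 h and -0.55, 0.98 and 1.55 at 24 h in AhR+/+ mice. The mean change was 1.57 ± 0.32 (SE, adjusted p = 0.00618), and 1 AhR+/+ array at 24 h stayed among those of 0 h. Crabp2, which carries retinoic acid inside cells, rose by 0.60 (0.59 and 0.62 in AhR-/- and AhR+/+; adjusted p = 0.00804). Cebpb, a transcription factor of differentiating keratinocytes, rose by 0.47 (0.55 and 0.40). Mgst2, a membrane glutathione transferase, rose by 0.54 (0.67 and 0.42), and Aldh3a1, an aldehyde dehydrogenase, by 0.60 (0.80 and 0.39). These 7 genes come from different lists and from the largest rises, and are not a group that was tested.

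The wound keratins had the largest median change of the 54 lists, 1.82, led by the AhR-/- arrays. Of 4 measured wound keratins, 3 rose in the mean, and none met the rule for each genotype. Krt6b, a keratin of hyperproliferative and wound-edge epidermis, read -0.95, -1.53 and -1.72 at 0 h and 4.20, 3.43 and 4.18 at 24 h in AhR-/- mice, and -1.60, -0.81 and 0.014 at 0 h and -0.94, 0.87 and 2.53 at 24 h in AhR+/+ mice. All 3 AhR-/- arrays at 24 h exceeded every 0 h array, while in AhR+/+ 2 of 3 did. The mean change was 3.48 ± 0.56 (SE, adjusted p = 0.00191), 11.1-fold, with 5.34 in AhR-/- and 1.62 in AhR+/+. Krt16, its usual partner in wounded skin, changed by 1.64 ± 0.34 (SE, adjusted p = 0.00628) in the mean but by 3.40 in AhR-/- and -0.11 in AhR+/+. Krt6a changed by 2.00 ± 0.52 (SE, adjusted p = 0.0235), with 3.72 in AhR-/- and 0.27 in AhR+/+, and its call was lost when any of 5 arrays was left out (AhR-/- 0 h replicates 1 and 3, AhR+/+ 0 h replicate 1, AhR-/- 24 h replicate 1 and AhR+/+ 24 h replicate 3), with changes down to 1.60. The call of Krt6a was also lost with number class (under 3000 or from 3000 up) as a block and after a second quantile normalization. Krt6a and Krt6b are near-identical copies, so their rows may share signal. Before stripping, the mean of the 4 keratins was between -1.49 and -1.23 on the AhR-/- arrays and on AhR+/+ replicate 1. It was -0.15 on AhR+/+ replicate 2 and 0.33 on replicate 3, both numbered under 3000, as was AhR-/- replicate 1. At 24 h it was between 1.43 and 2.07 in AhR-/- and between -0.69 and 0.95 in AhR+/+.

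Envelope precursors and protease inhibitors were led by the AhR-/- arrays as well. Of 11 small proline-rich proteins, which are cross-linked into the cornified envelope, 2 rose: Sprr1b by 2.14 ± 0.37 (SE, adjusted p = 0.0027), with 3.38 in AhR-/- and 0.90 in AhR+/+, and Sprr2h by 0.46 ± 0.10 (SE, adjusted p = 0.00928), with 0.93 in AhR-/- and -0.013 in AhR+/+. The number of rises was 4 without AhR-/- 24 h replicate 2. Sprr1b read -1.90, -3.12 and -1.52 at 0 h and 1.71, 0.81 and 1.09 at 24 h in AhR-/- mice, and -1.23, -0.45 and 0.13 at 0 h and 0.20, -0.0097 and 0.97 at 24 h in AhR+/+ mice. All but 1 of the 24 h arrays exceeded every 0 h array. Late cornified envelope genes had 0 of 19 called (limma, with 2 at an unadjusted p under 0.05 and a median of 0.078), but 2 rose without AhR-/- 6 h replicate 1, and 1 on arrays numbered from 3000 up alone. Other envelope and granular layer genes were mixed, with 3 of 31 that rose and 4 that fell. When single arrays were left out, the rises ran from 0 (without AhR-/- 0 h replicate 3 or AhR+/+ 0 h replicate 1) to 6 (without AhR+/+ 0 h replicate 3) and the falls from 1 to 4. Scel, the envelope protein sciellin, fell by 0.57 (-0.83 and -0.30). Of 24 serpins, stefins and cystatins, 6 rose and 3 fell. The falls numbered 1 without AhR-/- 0 h replicate 3. Stfa1 (2.10 ± 0.43 SE, adjusted p = 0.00646), Stfa3 (1.77 ± 0.28 SE, adjusted p = 0.0017) and Csta3 (1.46 ± 0.25 SE, adjusted p = 0.00245) are stefins, intracellular inhibitors of cysteine proteases, and near-identical copies of each other. Their AhR-/- and AhR+/+ changes were 3.60 and 0.59 for Stfa1, 2.85 and 0.70 for Stfa3 and 2.73 and 0.19 for Csta3. The secreted cystatin Cst6 rose by 0.40 (0.49 and 0.31) and met the rule for each genotype, but was not called on arrays numbered from 3000 up alone (change 0.34). Gsta4, which conjugates lipid peroxidation products, changed by 2.25 ± 0.37 (SE, adjusted p = 0.00218), with 3.91 in AhR-/- and 0.59 in AhR+/+. Gjb2, the gap junction protein connexin 26, changed by 1.26 ± 0.28 (SE, adjusted p = 0.0102), with 2.07 in AhR-/- and 0.45 in AhR+/+.

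The promoters of the 2 risen small proline-rich genes are shown because the family shares letters near the start that most promoters lack. Each line gives the 120 bases before the start (RefSeq, GRCm38.p6), for Sprr1b chr3:92438780-92438899 on the minus strand and for Sprr2h chr3:92385565-92385684 on the plus strand, with capitals for AP-1-type letters (TGANTCA) and TATA boxes (TATAAA), each searched on both strands.
Sprr1b: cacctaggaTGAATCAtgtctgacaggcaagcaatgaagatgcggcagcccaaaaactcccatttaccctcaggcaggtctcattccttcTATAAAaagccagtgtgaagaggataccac
Sprr2h: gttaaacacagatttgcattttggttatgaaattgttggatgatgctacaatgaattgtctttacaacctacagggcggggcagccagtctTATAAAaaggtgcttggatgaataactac
The AP-1-type letters of Sprr1b lie 111 to 105 bases before the start and its TATA box 30 to 25 bases before it; the TATA box of Sprr2h lies 29 to 24 bases before. In windows from 250 bases before to 50 after the start, TGANTCA was in 8 of 10 small proline-rich genes with a window and in 7.93% of 27025 genes. TATAAA was in 9 of 10 and in 14.2%. For late cornified envelope genes, which had 0 calls with all arrays, the counts were 0 of 17 and 3 of 17. For antimicrobial proteins and alarmins, TGANTCA was in 1 of 16 genes with a window and in 0 of 3 that rose. A match is a run of letters, not a bound site, and a link of these letters to the rise was not tested.

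Part of the mitosis genes rose in the mean. Of 78 measured genes of G2 and mitosis 22 rose, 18 of them by the rule for each genotype, and 2 fell, beside 3.48% and 7.34% of all rows. The list's median change was 0.11. The 22 risen genes had a median change of 0.58 in AhR-/- and 0.39 in AhR+/+. Cdk1, the kinase that drives entry into mitosis, read -0.058, -0.31 and -0.063 at 0 h and 0.90, 0.87 and 0.70 at 24 h in AhR-/- mice, and 0.039, -0.57 and -0.030 at 0 h and 0.45, 0.55 and 0.30 at 24 h in AhR+/+ mice. Ube2c, which feeds ubiquitin to the anaphase-promoting complex, read 0.063, -0.19 and -0.34 at 0 h and 0.91, 0.56 and 0.51 at 24 h in AhR-/- mice, and -0.062, -1.03 and -0.018 at 0 h and 0.48, 0.66 and 0.36 at 24 h in AhR+/+ mice. For both genes all 6 arrays at 24 h lay above all 6 at 0 h. Cdk1 rose 1.73-fold, 0.79 ± 0.096 (SE, adjusted p = 0.000644), with 0.97 in AhR-/- and 0.62 in AhR+/+, and Ube2c 1.79-fold, 0.84 ± 0.15 (SE, adjusted p = 0.00281), with 0.82 in AhR-/- and 0.87 in AhR+/+.

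The other risen members act at several steps of division. Plk1, a kinase of mitotic entry and spindle poles, rose by 0.88 ± 0.12 (SE, adjusted p = 0.000945), with 1.16 in AhR-/- and 0.59 in AhR+/+, and Ccnb2, the cyclin B2 partner of Cdk1, by 0.75 ± 0.14 (SE, adjusted p = 0.00393), with 0.75 in AhR-/- and 0.75 in AhR+/+. Kinetochore and centromere genes rose as well, with 0.59 ± 0.070 (SE, adjusted p = 0.000644) for Spc24 of the NDC80 complex and 0.44 ± 0.047 (SE, adjusted p = 0.000644) for Cenpa, the histone H3 of centromeres. Spc24 changed by 0.67 in AhR-/- and 0.51 in AhR+/+, and Cenpa by 0.51 in AhR-/- and 0.36 in AhR+/+. Cdc20, which activates the anaphase-promoting complex, rose by 0.45 (0.59 and 0.32), Birc5, survivin of the chromosomal passenger complex, by 0.49 (0.57 and 0.40), and its partner Cdca8, borealin, by 0.45 (0.42 and 0.49). Melk, a mitotic kinase, rose by 0.63 (0.84 and 0.42). The exceptions were Smc4, a condensin subunit (-0.62 ± 0.17 SE, adjusted p = 0.0279), and Kif18a, a kinesin of chromosome alignment (-0.39 ± 0.089 SE, adjusted p = 0.0117). The call of Smc4 was lost without AhR-/- 0 h replicates 1 or 3, AhR+/+ 0 h replicate 1, AhR-/- 24 h replicate 3 or AhR+/+ 24 h replicates 2 or 3, with changes up to -0.50. That call was also lost with number class as a block. Kif18a was not called on arrays numbered from 3000 up alone, at -0.39. Risen members had a median span of 12.4 kb and members not called 30.1 kb. With the span trend removed 23 members rose, with arrays numbered from 3000 up alone 11 rose and 7 fell, and leaving out single arrays gave 16 to 25 that rose and 1 to 4 that fell (4 without AhR+/+ 0 h replicate 2).

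Promoters of 5 risen mitosis genes are shown because CHR and CCAAT letters recur in this list. Each line is the 120 bases before the start (RefSeq, GRCm38.p6): Cdk1 chr10:69352913-69353032, minus strand; Ube2c chr2:164769809-164769928, plus strand; Cdc20 chr4:118437344-118437463, minus strand; Ccnb2 chr9:70421555-70421674, minus strand; Plk1 chr7:122159315-122159434, plus strand. Capitals mark the CHR element (TTTGAA) and CCAAT boxes (CCAAT), on either strand, so that TTCAAA and ATTGG are their reverse forms.
Cdk1: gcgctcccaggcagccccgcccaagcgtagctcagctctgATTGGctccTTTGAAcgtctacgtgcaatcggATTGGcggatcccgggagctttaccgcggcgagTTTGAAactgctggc
Ube2c: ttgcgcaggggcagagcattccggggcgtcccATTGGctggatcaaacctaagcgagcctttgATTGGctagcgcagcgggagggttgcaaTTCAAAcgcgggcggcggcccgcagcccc
Cdc20: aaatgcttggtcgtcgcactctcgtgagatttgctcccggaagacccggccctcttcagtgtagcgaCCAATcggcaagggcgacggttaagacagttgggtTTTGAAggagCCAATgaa
Ccnb2: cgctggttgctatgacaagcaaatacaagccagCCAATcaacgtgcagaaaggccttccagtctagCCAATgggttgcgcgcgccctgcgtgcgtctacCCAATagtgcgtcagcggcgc
Plk1: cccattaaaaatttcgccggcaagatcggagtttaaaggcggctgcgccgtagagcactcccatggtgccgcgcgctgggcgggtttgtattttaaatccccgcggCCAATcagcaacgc
Cdk1 has 2 CHR elements, 71 to 66 and 15 to 10 bases before the start, and 2 CCAAT boxes. Ube2c has a CHR element 29 to 24 bases before the start and 2 CCAAT boxes, and Ccnb2 has 3 CCAAT boxes without TTTGAA in these bases. In windows from 250 bases before to 50 after the start, TTTGAA was in 43 of 64 mitosis genes with a window (67.2%) and in 18.1% of 27025 genes, and CCAAT in 45 of 64 (70.3%) and in 37.9%. Among the risen members with a window, 13 of 18 had TTTGAA and 12 of 18 had CCAAT.

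Part of the S phase genes rose in the mean as well. Of 49 genes of DNA replication and S phase 18 rose and 2 fell, beside 3.48% and 7.34% of all rows. The list median was 0.23, and 2 of the risen genes met the rule for each genotype. Tk1, the thymidine kinase of dividing cells, read -0.39, -0.019 and 0.25 at 0 h and 1.06, 1.13 and 0.89 at 24 h in AhR-/- mice, and 0.12, 0.0096 and -0.051 at 0 h and 0.45, 0.49 and 0.77 at 24 h in AhR+/+ mice. Its arrays did not overlap between 0 h and 24 h, and it rose 1.76-fold, 0.81 ± 0.10 (SE, adjusted p = 0.000644), with 1.08 in AhR-/- and 0.54 in AhR+/+. Rfc5, a subunit of the sliding-clamp loader, rose by 0.50 ± 0.064 (SE, adjusted p = 0.000644), with 0.66 in AhR-/- and 0.34 in AhR+/+. The replicative helicase genes Mcm2 (0.50 ± 0.094 SE, adjusted p = 0.00422) and Mcm3 (0.46 ± 0.10 SE, adjusted p = 0.0111) rose in the mean, with changes of 1.07 and -0.080 for Mcm2 and 0.97 and -0.059 for Mcm3 in AhR-/- and AhR+/+. Rrm2, the small subunit of ribonucleotide reductase, changed by 0.58 (0.88 and 0.27) on 1 of its 2 rows and was not called on the other, at 0.084. The 18 risen members had a median change of 0.68 in AhR-/- and 0.084 in AhR+/+; the difference between the responses was called for 0 rows. Rfc1, the large subunit of the clamp loader, fell by 0.42 (-0.32 and -0.51), and Pola1, the catalytic subunit of DNA polymerase alpha, fell by 0.39 (-0.33 and -0.46). On arrays numbered from 3000 up alone 11 members rose. The E2F letters TTTNGCGC were in 9 of 43 members with a window, against 1.38% of all genes, and TTTCCCGC in 7 of 43, against 1.11%. Among the risen members with a window, each form was in 3 of 15. These shares describe how the list is made up, and a link to the rise was not tested.

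**Figure D3:**
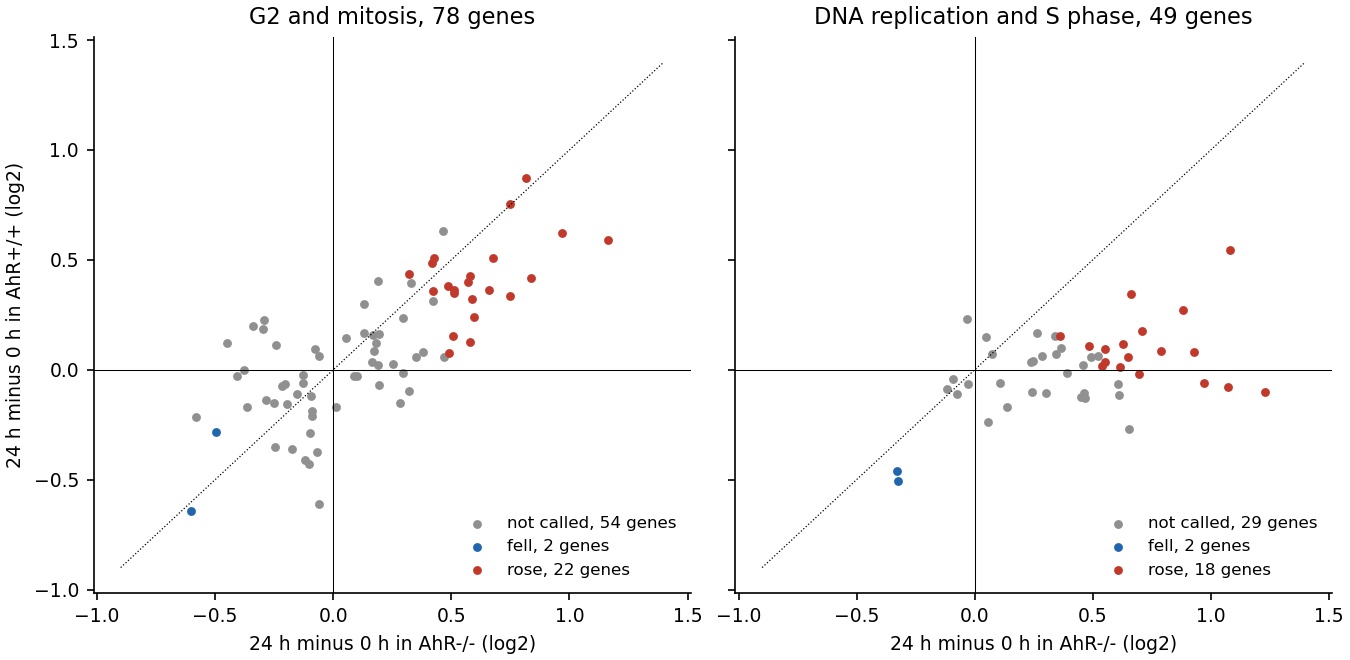
Change from 0 h to 24 h in AhR-/- (x axis, log2) and AhR+/+ (y axis, log2) of the 78 mitosis genes (left) and 49 replication genes (right); the dotted line marks equal change. Risen mitosis genes lie near the line, with a median of 0.58 in AhR-/- and 0.39 in AhR+/+, and risen replication genes lie mostly along the x axis, with 0.68 and 0.084.

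Of 46 measured histone genes, a family taken up after their values were seen, 9 rose in the mean, 7 of them by the rule for each genotype, and 0 fell, beside 3.48% and 7.34% of all rows. The family's median change was 0.15. H2ac10, a canonical H2A gene, read 0.11, 0.041 and 0.0035 at 0 h and 0.86, 0.87 and 0.38 at 24 h in AhR-/- mice, and -0.038, -0.37 and -0.48 at 0 h and 0.99, 0.80 and 0.42 at 24 h in AhR+/+ mice. Each array at 24 h lay above all arrays at 0 h, and the rise was 1.79-fold, 0.84 ± 0.12 (SE, adjusted p = 0.0012), with 0.65 in AhR-/- and 1.03 in AhR+/+. H2ax, the variant phosphorylated at DNA breaks, rose by 0.82 ± 0.13 (SE, adjusted p = 0.0017), with 0.72 in AhR-/- and 0.92 in AhR+/+, and H1f2, a linker histone, by 0.78 ± 0.14 (SE, adjusted p = 0.00292), with 0.63 in AhR-/- and 0.93 in AhR+/+. The tubulin gene Tubb5, also named after its value was seen, rose by 0.57 ± 0.073 (SE, adjusted p = 0.000644), with 0.76 in AhR-/- and 0.38 in AhR+/+.

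Several brakes on the cell cycle fell in the mean. Of 31 inhibitors and quiescence genes 8 fell and 1 rose, beside 7.34% and 3.48% of all rows. The list median was -0.17, with -0.21 in AhR-/- and 0.053 in AhR+/+. The 8 fallen members had a median change of -0.64 in AhR-/- and -0.12 in AhR+/+. The falls numbered 5 without AhR-/- 0 h replicate 2, AhR+/+ 0 h replicate 1, AhR-/- 24 h replicate 1 or AhR+/+ 24 h replicate 1. Ccng1, a p53 target, fell by 0.69 ± 0.10 (SE, adjusted p = 0.00139), with -0.84 in AhR-/- and -0.54 in AhR+/+, and was the 1 member that met the rule for each genotype. Cdkn1b, the kinase inhibitor p27, changed by -0.50 ± 0.10 (SE, adjusted p = 0.00594), with -0.95 in AhR-/- and -0.050 in AhR+/+, and Rbl2, the pocket protein p130 of resting cells, fell by 0.31 ± 0.070 (SE, adjusted p = 0.0119), with -0.53 in AhR-/- and -0.085 in AhR+/+. Rb1, the retinoblastoma protein, listed with the G1 genes, fell by 0.52 (-0.62 and -0.43) on 1 row, while its other row changed by 0.00029.

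**Figure D4:**
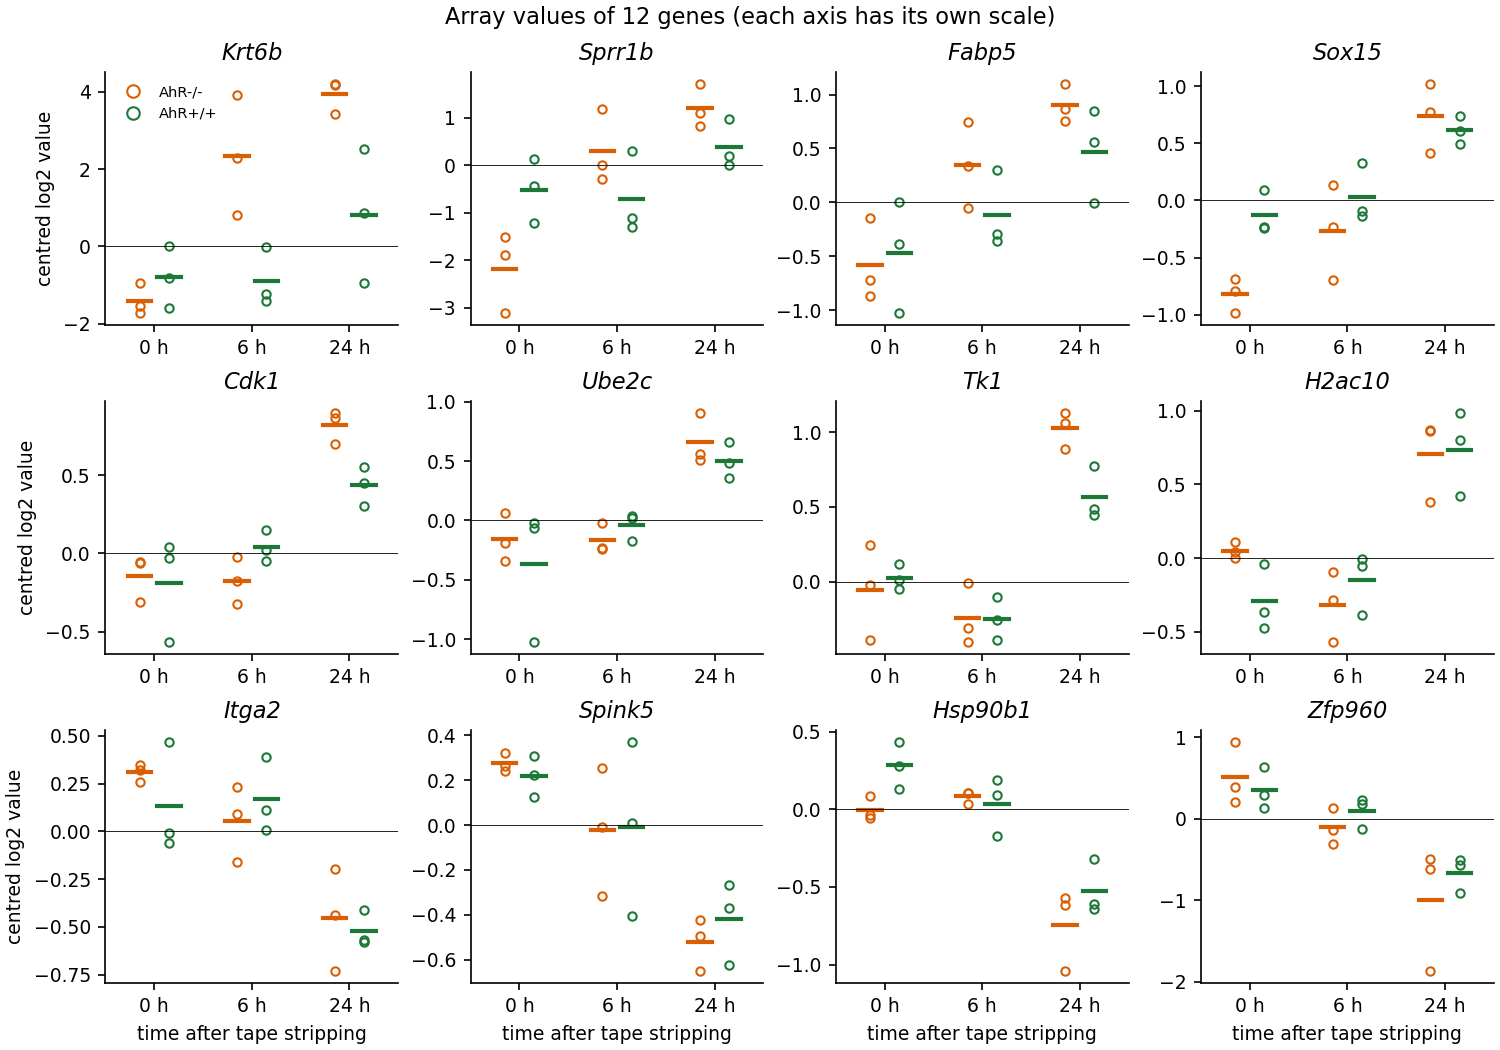
Centred log2 values of 12 genes on every array at 0, 6 and 24 h; circles are single arrays of AhR-/- (orange) and AhR+/+ (green), bars the means of 3, and each panel has its own y axis. Cdk1, Ube2c, Tk1, H2ac10 and Sox15 have all 24 h arrays above all 0 h arrays, and Itga2, Spink5, Hsp90b1 and Zfp960 have all of them below.

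Fallen rows were more numerous than risen ones, and 966 of 1727 met the rule for each genotype, beside 335 of 818 risen rows. The largest mean fall among called genes, by the row that stands for each gene, was that of Zfp960, a zinc finger protein, which read 0.94, 0.39 and 0.20 at 0 h and -0.50, -0.62 and -1.87 at 24 h in AhR-/- mice, and 0.14, 0.63 and 0.29 at 0 h and -0.51, -0.92 and -0.57 at 24 h in AhR+/+ mice. No array at 24 h reached the lowest at 0 h, and the fall was 2.4-fold, -1.26 ± 0.21 (SE, adjusted p = 0.00202), with -1.51 in AhR-/- and -1.02 in AhR+/+. It was not called on arrays numbered from 3000 up alone, where the change was -1.05. Aadacl2fm1, of the arylacetamide deacetylase-like family, read 0.72, -0.0059 and 0.19 at 0 h and -1.04, -0.67 and -1.16 at 24 h in AhR-/- mice, and 0.19, 0.30 and 0.25 at 0 h and -0.70, -0.67 and -0.79 at 24 h in AhR+/+ mice. Its 0 h and 24 h arrays were again apart, and the change was -1.11 ± 0.13 (SE, adjusted p = 0.000644), with -1.25 in AhR-/- and -0.96 in AhR+/+. H2-M2, a non-classical MHC class I gene, changed by -1.0 ± 0.15 (SE, adjusted p = 0.00136), with -0.90 in AhR-/- and -1.11 in AhR+/+, and Sema3d, a secreted semaphorin, fell by 1.01 ± 0.13 (SE, adjusted p = 0.000644), with -1.29 in AhR-/- and -0.73 in AhR+/+. Of 362 genes whose symbol begins with Zfp, a family taken up after its values were seen, 89 fell and 3 rose, and 50 of the falls met the rule for each genotype. Zfp617 (-1.30 and -0.74) and Zfp654 (-0.93 and -0.92) were among the largest. The family's median change was -0.096, with -0.14 in AhR-/- and -0.053 in AhR+/+, and 100 members lay above 0.

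All 11 measured Skint genes fell in the mean. They encode butyrophilin-like proteins of keratinocytes, of which 1, Skint1, is known to select the gamma-delta T cells of mouse epidermis. Skint1 had the smallest fall, -0.37, with -0.79 in AhR-/- and 0.037 in AhR+/+, and did not meet the rule for each genotype. The family was taken up after its values were seen. The median change was -0.80, with -1.13 in AhR-/- and -0.49 in AhR+/+, and 5 falls met the rule for each genotype. Skint4 read 0.74, 0.68 and 0.91 at 0 h and -0.53, -0.36 and -0.65 at 24 h in AhR-/- mice, and 0.75, 0.11 and 0.21 at 0 h and 0.074, -0.17 and -0.46 at 24 h in AhR+/+ mice. Its lowest 0 h array was just above its highest 24 h array. It changed by -0.92 ± 0.18 (SE, adjusted p = 0.00499), with -1.29 in AhR-/- and -0.55 in AhR+/+, Skint6 fell by 0.91 ± 0.19 (SE, adjusted p = 0.0071), with -1.13 in AhR-/- and -0.70 in AhR+/+, and Skint10 fell by 0.95 ± 0.19 (SE, adjusted p = 0.00517), with -1.42 in AhR-/- and -0.49 in AhR+/+. The Skint genes are close copies of each other, so their rows are not independent. Of 21 T cell markers 3 fell, 0 rose and 18 were not called, beside 7.34% of all rows that fell. The list's median change was -0.036 in AhR-/- and -0.17 in AhR+/+, and 7 members lay above 0. One fallen marker was Ptprc, the leukocyte phosphatase CD45 (-0.87 ± 0.14 SE, adjusted p = 0.00178, with -0.77 in AhR-/- and -0.97 in AhR+/+). The others were Trat1, a T cell receptor adaptor (-0.70 ± 0.10 SE, adjusted p = 0.00127, with -0.37 in AhR-/- and -1.04 in AhR+/+), and Cd96 (-0.44 ± 0.092 SE, adjusted p = 0.00673, with -0.51 in AhR-/- and -0.37 in AhR+/+). The mean of the T cell list lay between -0.53 and 0.42 on 0 h arrays and between -0.46 and 0.21 on 24 h arrays, and its part in the Skint result was not tested. In RNA from whole sheets, fewer cells of a type and less RNA per cell cannot be told apart.

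Several genes that anchor basal keratinocytes fell in the mean. Of 31 genes of basal adhesion and migration 9 fell, 5 of them by the rule for each genotype, and 2 rose. The rises ran from 0 to 3 when single arrays were left out, and the falls from 6 to 9. This list's median change was 0.010 in AhR-/- and -0.20 in AhR+/+, and 13 members lay below 0 in both genotypes. Itga2, a collagen-binding integrin subunit, read 0.32, 0.26 and 0.35 at 0 h and -0.19, -0.44 and -0.73 at 24 h in AhR-/- mice, and 0.47, -0.0086 and -0.062 at 0 h and -0.58, -0.41 and -0.57 at 24 h in AhR+/+ mice. Arrays of 0 h and 24 h were apart, and the change was -0.71 ± 0.11 (SE, adjusted p = 0.00153), with -0.76 in AhR-/- and -0.65 in AhR+/+. Lama3, the alpha chain of laminin-332 in the basement membrane, fell by 0.54 ± 0.095 (SE, adjusted p = 0.00279), with -0.55 in AhR-/- and -0.54 in AhR+/+, and Dst, which ties keratins to hemidesmosomes, fell by 0.52 ± 0.071 (SE, adjusted p = 0.000945), with -0.61 in AhR-/- and -0.42 in AhR+/+. Flrt3, a membrane protein of cell contacts, fell by 0.39 (-0.50 and -0.28). Desmosome genes pointed the same way, with 5 of 14 lower, 0 higher and a median of -0.12. Dsc3, the basal desmocollin, fell by 0.44 ± 0.083 (SE, adjusted p = 0.00397), with -0.60 in AhR-/- and -0.28 in AhR+/+, and Dsg1a, a desmoglein of upper layers, fell by 0.49 ± 0.11 (SE, adjusted p = 0.0121), with -0.67 in AhR-/- and -0.32 in AhR+/+. The fallen adhesion genes had a median span of 84.6 kb, in the range where falls were most frequent, and 6 fell with the span trend removed.

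Several receptors of growth factors and cytokines fell. Of 28 genes of EGFR and related growth factor signalling 7 fell and 2 rose, with ligands on both sides. The falls numbered 4 without AhR-/- 0 h replicate 3, AhR-/- 24 h replicate 1 or AhR+/+ 24 h replicate 1. Egfr, the receptor, read 0.0026, 0.22 and 0.21 at 0 h and -0.20, -0.33 and -0.37 at 24 h in AhR-/- mice, and 0.53, 0.064 and 0.065 at 0 h and -0.35, -0.0026 and -0.18 at 24 h in AhR+/+ mice, apart at the 2 times. It fell by 0.42 ± 0.10 (SE, adjusted p = 0.0156), with -0.44 in AhR-/- and -0.40 in AhR+/+, and Met, the receptor of hepatocyte growth factor, fell by 0.48 ± 0.090 (SE, adjusted p = 0.00381), with -0.48 in AhR-/- and -0.49 in AhR+/+. The ligand Hbegf, which keratinocytes release at wound edges, read -0.44, -0.35 and -0.046 at 0 h and 0.24, 0.18 and 0.40 at 24 h in AhR-/- mice, and 0.12, -0.38 and -0.22 at 0 h and 0.27, 0.41 and 0.35 at 24 h in AhR+/+ mice. It rose by 0.53 ± 0.11 (SE, adjusted p = 0.00557), with 0.55 in AhR-/- and 0.51 in AhR+/+, and the arrays of 0 h and 24 h did not overlap. With the span trend removed, 4 members of this list fell. Among interleukin 1 family genes 3 of 14 fell and 0 rose, with Il18r1, a subunit of the interleukin 18 receptor, at -0.48 ± 0.072 (SE, adjusted p = 0.00136), with -0.62 in AhR-/- and -0.35 in AhR+/+. Il1rap, the shared co-receptor of the family, changed by -0.60 (-0.72 and -0.49) on 1 of 3 rows and was not called on the others, at -0.037 and -0.072. Of 38 other cytokine, receptor and SOCS feedback genes 3 fell and 0 rose, a share near the 7.34% of all rows that fell. Il13ra1, shared by interleukins 4 and 13, fell by 0.51 ± 0.070 (SE, adjusted p = 0.000965), with -0.56 in AhR-/- and -0.45 in AhR+/+, and Il6st, the gp130 chain, fell by 0.52 (-0.67 and -0.36). Of 28 chemokines 3 rose and 1 fell, and with single arrays left out 2 to 4 rose and 0 to 2 fell. Cxcl1, which attracts neutrophils, rose by 0.75 ± 0.14 (SE, adjusted p = 0.00435), with 1.13 in AhR-/- and 0.37 in AhR+/+, and Ccl2, which attracts monocytes, by 0.56 ± 0.15 (SE, adjusted p = 0.0261), with 0.55 in AhR-/- and 0.58 in AhR+/+. The call of Ccl2 was lost without AhR-/- 0 h replicate 2, AhR+/+ 0 h replicate 1, AhR-/- 24 h replicates 1 or 3 or AhR+/+ 24 h replicate 2 (lowest change 0.46). That call was also lost with number class as a block.

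Barrier lipid genes and proteases moved in both directions. Of 33 genes of ceramides and other barrier lipids 7 rose and 3 fell, beside 3.48% and 7.34% of all rows. Cers4, a ceramide synthase, rose by 0.58 ± 0.12 (SE, adjusted p = 0.0054), with 0.61 in AhR-/- and 0.56 in AhR+/+, and Degs1, which desaturates dihydroceramide, by 0.51 ± 0.12 (SE, adjusted p = 0.011), with 0.65 in AhR-/- and 0.38 in AhR+/+. The epidermal lipase gene Lipm fell by 0.65 ± 0.098 (SE, adjusted p = 0.0014), with -1.0 in AhR-/- and -0.30 in AhR+/+. In cholesterol synthesis 2 of 19 rose (4 without AhR-/- 0 h replicate 1 or AhR-/- 6 h replicate 1), both by the rule for each genotype: Tm7sf2, a sterol reductase, by 0.36 ± 0.049 (SE, adjusted p = 0.000847), with 0.39 in AhR-/- and 0.34 in AhR+/+, and Fdps, which makes farnesyl diphosphate, by 0.40 ± 0.078 (SE, adjusted p = 0.0051), with 0.39 in AhR-/- and 0.40 in AhR+/+. Hmgcs1, an early enzyme of that pathway, fell by 0.39 (-0.54 and -0.25). Spink5, which encodes LEKTI, an inhibitor of skin kallikreins, read 0.32, 0.24 and 0.26 at 0 h and -0.49, -0.42 and -0.65 at 24 h in AhR-/- mice, and 0.31, 0.13 and 0.22 at 0 h and -0.27, -0.37 and -0.63 at 24 h in AhR+/+ mice. Its 24 h arrays were all below its 0 h arrays, and it fell 1.65-fold, -0.72 ± 0.12 (SE, adjusted p = 0.002), with -0.80 in AhR-/- and -0.64 in AhR+/+. The kallikreins Klk6 (1.28 ± 0.29 SE, adjusted p = 0.0117) and Klk13 (0.82 ± 0.17 SE, adjusted p = 0.00701) rose in the mean, with 2.28 and 0.27 for Klk6 and 1.42 and 0.22 for Klk13 in AhR-/- and AhR+/+. Of 24 kallikreins and their inhibitors 3 rose (5 without AhR+/+ 0 h replicate 3) and 1 fell. Genes of sebaceous and neutral lipids included 4 of 26 that rose and 2 that fell. Elovl3, an elongase of sebaceous gland and hair follicle, rose by 1.13 ± 0.27 (SE, adjusted p = 0.0138), with 1.46 in AhR-/- and 0.80 in AhR+/+, and Cidea, a lipid droplet protein, by 0.58 ± 0.092 (SE, adjusted p = 0.00178), with 0.77 in AhR-/- and 0.39 in AhR+/+.

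Several chaperones and RNA helicases fell in the mean. Hsp90b1, the endoplasmic reticulum chaperone GRP94, read 0.086, -0.057 and -0.036 at 0 h and -0.57, -0.62 and -1.04 at 24 h in AhR-/- mice, and 0.43, 0.13 and 0.28 at 0 h and -0.64, -0.32 and -0.61 at 24 h in AhR+/+ mice. No 24 h array reached a 0 h array, and the fall was 1.71-fold, -0.77 ± 0.089 (SE, adjusted p = 0.000644), with -0.74 in AhR-/- and -0.81 in AhR+/+. Canx, the lectin chaperone calnexin, fell by 0.42 ± 0.066 (SE, adjusted p = 0.00167), with -0.44 in AhR-/- and -0.41 in AhR+/+. They were among 4 of 26 members of the unfolded protein response list that fell, with 0 that rose, beside 7.34% and 3.48% of all rows. That list's median change was 0.028 in AhR-/- and -0.20 in AhR+/+, and 12 members lay below 0 in both genotypes. The cytosolic chaperone Hsp90aa1 fell by 0.70 ± 0.13 (SE, adjusted p = 0.00406), with -0.60 in AhR-/- and -0.79 in AhR+/+, as 1 of 4 fallen members among 22 heat shock genes; on arrays numbered from 3000 up alone that count was 1, and it was 1 without AhR+/+ 0 h replicate 3, AhR-/- 24 h replicate 3 or AhR+/+ 24 h replicate 1, 2 without AhR-/- 0 h replicate 2 or AhR-/- 24 h replicate 2. Of 50 DEAD and DEAH box helicases, a family taken up after its values were seen, 14 fell and 0 rose, and 12 falls met the rule for each genotype. The family as a whole did not fall in both genotypes: its median change was -0.034, with 0.045 in AhR-/- and -0.15 in AhR+/+. Of its members, 22 lay above 0. Dhx36, which unwinds G-quadruplexes, fell by 0.79 ± 0.11 (SE, adjusted p = 0.00117), with -0.85 in AhR-/- and -0.73 in AhR+/+, Dhx9 fell by 0.52 ± 0.065 (SE, adjusted p = 0.000644), with -0.46 in AhR-/- and -0.58 in AhR+/+, and Ddx50 fell by 0.56 ± 0.063 (SE, adjusted p = 0.000644), with -0.68 in AhR-/- and -0.44 in AhR+/+. Of 66 genes of ribosome biogenesis 10 fell and 3 rose, but on arrays numbered from 3000 up alone 2 fell and 8 rose, so no direction is given for that list. Its falls numbered 6 without AhR-/- 0 h replicate 3. The list's median change was 0.23 in AhR-/- and -0.21 in AhR+/+. In both genotypes 10 members lay above 0 and 19 below 0.

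Part of the mitochondrial genes rose by small amounts. Of 42 Nduf genes, which encode subunits and assembly factors of respiratory complex I, 14 rose and 1 fell, with a median change of 0.30. The median was 0.35 in AhR-/- and 0.23 in AhR+/+, and 6 of the rises met the rule for each genotype. Of 68 genes of the mitochondrial ribosome 20 rose and 1 fell, with a median of 0.21. That median was 0.31 in AhR-/- and 0.14 in AhR+/+, and 8 of the rises met the rule for each genotype. Both families were taken up after their values were seen, and the part of the gene span trend in their counts was not tested. Mrpl58 rose by 0.55 ± 0.11 (SE, adjusted p = 0.00563), with 0.63 in AhR-/- and 0.48 in AhR+/+, and Mrpl55 by 0.42 ± 0.074 (SE, adjusted p = 0.00287), with 0.38 in AhR-/- and 0.47 in AhR+/+. Eif4ebp1, a repressor of cap-dependent translation, rose by 0.57 ± 0.11 (SE, adjusted p = 0.00357), with 0.80 in AhR-/- and 0.34 in AhR+/+.

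Regulators changed in both directions, with counts to be read beside 3.48% of all rows that rose and 7.34% that fell. Of 35 genes of WNT and BMP signalling 4 rose and 5 fell, and with single arrays left out 1 to 5 rose and 1 to 6 fell, the fewest falls without AhR+/+ 0 h replicate 1 or AhR-/- 24 h replicate 1. On arrays numbered from 3000 up alone 11 of them fell. Wnt16, a WNT ligand, read 0.21, 0.26 and 0.013 at 0 h and -0.31, -0.36 and -0.39 at 24 h in AhR-/- mice, and -0.098, 0.17 and 0.14 at 0 h and -0.36, -0.50 and -0.39 at 24 h in AhR+/+ mice. Its 24 h arrays were all below its 0 h arrays. The change was -0.50 ± 0.065 (SE, adjusted p = 0.000672), with -0.51 in AhR-/- and -0.49 in AhR+/+. Bmp7, a bone morphogenetic protein, rose by 0.37 ± 0.076 (SE, adjusted p = 0.00618), with 0.47 in AhR-/- and 0.27 in AhR+/+. Clock, a core gene of the circadian clock, fell by 0.59 ± 0.12 (SE, adjusted p = 0.00497), with -0.78 in AhR-/- and -0.39 in AhR+/+, as the 1 call among 19 clock genes. Of 13 gasdermin and inflammasome genes 2 fell and 0 rose. Casp4, the inflammatory caspase that cleaves gasdermin D, fell by 0.75 ± 0.13 (SE, adjusted p = 0.00302), with -0.61 in AhR-/- and -0.88 in AhR+/+. Of 11 genes of the AhR pathway and its target enzymes 1 rose and 2 fell. Ahr itself read -0.13, 0.040 and -0.016 at 0 h and -0.59, -0.74 and -0.64 at 24 h in AhR-/- mice, and 0.63, 0.16 and 0.072 at 0 h and -0.011, 0.12 and 0.011 at 24 h in AhR+/+ mice. The AhR-/- arrays lay below all AhR+/+ arrays at both times, and the row fell by 0.43 ± 0.10 (SE, adjusted p = 0.0129) in the mean, with -0.62 in AhR-/- and -0.25 in AhR+/+. Where the probes of this row lie relative to the deleted part was not examined here.

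**Figure D5:**
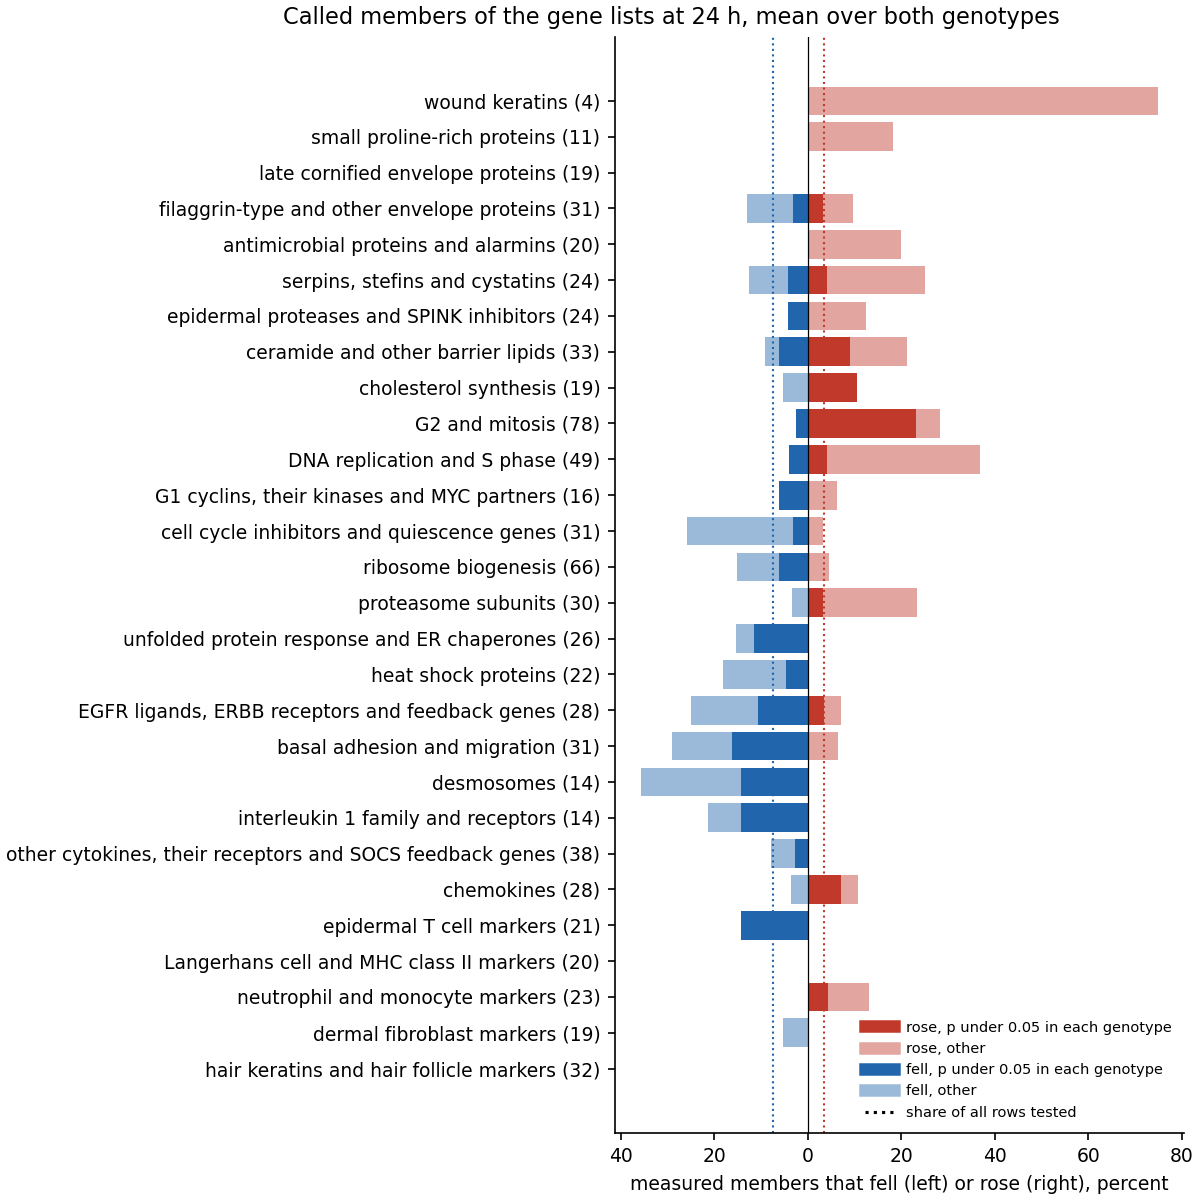
Percent of each list's measured genes (number in brackets) that fell (left, blue) or rose (right, red) at 24 h in the mean over both genotypes. Dark parts met the rule for each genotype. Dotted lines mark the 7.34% and 3.48% of all rows called in the mean, while by the rule for each genotype 4.11% fell and 1.42% rose. Mitosis has the longest dark red bar, 18 of 78 genes, and basal adhesion the longest dark blue one, 5 of 31.

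Markers of other cells were mostly not called. By limma, Langerhans cell markers had 0 of 20 called (3 at an unadjusted p under 0.05), endothelial markers 0 of 15 (4) and hair follicle markers 0 of 32 (4). Dermal fibroblast markers had 1 of 19 lower, Postn, the matrix protein periostin, at -0.53 ± 0.10 (SE, adjusted p = 0.00503), with -0.78 in AhR-/- and -0.28 in AhR+/+. Neutrophil and monocyte markers had 3 of 23 higher and 0 lower. One of them, S100a9, which keratinocytes also express, changed by 0.43 ± 0.097 (SE, adjusted p = 0.0113), with 0.84 in AhR-/- and 0.014 in AhR+/+. The mean of the neutrophil list lay between -0.11 and 0.043 at 0 h and between -0.044 and 0.29 at 24 h, and that of the hair follicle list between -0.071 and 0.15 and between -0.00075 and 0.68. The part of these shifts in the results above was not tested.

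The 6 h arrays were compared with the same 0 h arrays, so the 2 changes share controls and are given side by side only. At 6 h no row was called in the mean (limma, 0 rows, 3339 at an unadjusted p under 0.05, smallest adjusted p = 0.137). On arrays numbered from 3000 up alone, with 1 array per genotype at 6 h, 1785 rows were called. The median 6 h change was 0.13 for rows risen at 24 h and -0.19 for rows fallen at 24 h. Mitosis genes were near or below 0 at 6 h, with 0.099 for Cdk1, -0.050 for Ccnb2 and -0.050 for Spc24, and the list's median was -0.17 at 6 h beside 0.11 at 24 h. Tk1 was at -0.23 at 6 h and 0.81 at 24 h. Wound-associated genes had positive mean changes at 6 h, 1.82 for Krt6b, 1.14 for Sprr1b and 0.64 for Fabp5. For Krt6b and Sprr1b these came from AhR-/- alone. From 0 h to 6 h the AhR-/- group mean went from -1.40 to 2.33 for Krt6b and from -2.18 to 0.30 for Sprr1b. The AhR+/+ group mean went from -0.80 to -0.88 and from -0.51 to -0.71. Of the falls, Itga2 was at -0.11, Hsp90b1 at -0.081 and Spink5 at -0.26 at 6 h, while Skint4 was at -0.64 and Zfp654 at -0.62.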

How the data were processed

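Total RNA of epidermal sheets was labelled as biotinylated cDNA and hybridised to 1 Affymetrix array per sample, per the labels' protocols. The authors deposited log2-type values for 33793 rows; each row is centred on its median over the 18 arrays. The sources used here do not state the background correction, normalization, log base or genome build, and the base was taken as 2. The column check left 0 columns of other samples. Arrays have no read depth; their number, 3 per group, limits precision, and no pair of arrays was identical.

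Linear models were fitted with limma 3.58.1 (R 4.3.3), with 1 mean for each of 6 groups over 18 arrays, on the 23521 rows with 1 gene symbol; 1814 rows with several symbols and 8458 with none were left out. Contrasts were the mean 24 h change over genotypes, the change in each genotype, their difference, both at once, and 6 h minus 0 h. The Benjamini-Hochberg adjustment ran over these rows, with calls at an adjusted p under 0.05. On simulated data the script recovered 86 of 100 rows changed by 0.5 and 99 of 100 changed by 1 for the mean change. For lists and genes, the row with the largest SD over all arrays stood for a gene with several rows. Named genes are members of lists, among the 20 largest rises or falls with 1 sign in both genotypes, or Ahr; genes of families taken up after their values were seen are so marked. Members and lists were chosen with earlier results of these data known. Alternatives were other normalizations, row sets, limma settings, blocks, arrays left out, and, added after seeing the data, the rule for each genotype and removal of the span trend.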

Additional observations from a re-analysis of the deposited data

Results flagged for a closer look

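Rows left out of the comparison because they carry several gene symbols or none also changed between 0 h and 24 h. Fitted with all 33793 rows, 236 of these 10272 rows rose and 171 fell in the mean over both genotypes (limma, adjusted p under 0.05), together 3.96% of them. Their largest rise was 1.12 and their largest fall -1.14 on the log2 scale. They are signal in data that the comparisons above do not use, and name no gene here.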

How the results depend on the processing

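The total of rows called in the mean change, 2545, stayed within 1.5 times under every alternative run: from 1715 (without AhR-/- 0 h replicate 3) to 2812 with 1 array left out, and up to 3495 on arrays numbered from 3000 up alone. The 818 rises did not: they ran from 418 (without AhR-/- 0 h replicate 3) to 1018 (without AhR-/- 6 h replicate 1) with 1 array left out, and were 1309 on arrays numbered from 3000 up alone, while the falls ran from 1271 to 1804 with 1 array left out. Removing the span trend moved the split from 818 up and 1727 down to 1247 and 1511. For both genotypes at once, 0 rows became 6 on the 12 arrays of 0 h and 24 h alone, 1 after a second quantile normalization and 1301 by the rule for each genotype, and 0 to 4 with 1 array left out. The difference between the responses, 0 rows, became 9 with array weights and 0 to 32 with 1 array left out, the most without AhR+/+ 0 h replicate 1. The 6 h change, 0 rows, became 1785 (863 up, 922 down) on arrays numbered from 3000 up alone, where single arrays of a group were assumed to vary like the other groups, and 0 to 21 with 1 array left out, the most without AhR+/+ 6 h replicate 2. The cause was not tested. Rows by the rule for each genotype numbered 2347 on arrays numbered from 3000 up alone. With number class as a block, the mean change called 2670 rows, and with replicate number as a block 2268 rows. Same-numbered arrays of 0 h and 24 h correlated between -0.22 and 0.060 in their deviations from group means. Differently numbered arrays of 1 genotype correlated between -0.16 and 0.23. With 3 arrays per group these values cannot tell whether the numbers pair the samples. Of the 100 genes named above, not counting Skint1, 94 kept their call under all 30 alternatives, 97 whichever single array was left out, and 0 changed sign. These 100 genes were all called in the main fit, so they are a selected set. Of 108 list counts, 78 moved by over 1.5 times, or to or from 0, under at least 1 alternative. With 3 arrays per group, small changes can go uncalled.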
